A study of Sus scrofa with 12 samples.

Results

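Some miRNAs are abundant in red blood cells, and 4 of them were followed here through the uterus of newborn pigs as a readout of blood in the tissue. The 4 are miR-451 (ssc-miR-451), miR-144 (ssc-miR-144), miR-486 (ssc-miR-486) and miR-185 (ssc-miR-185). They were taken by name, with any arm suffix, and matched 4 of the 420 miRNA rows in the deposited table, 1 row each. All 4 were above the low-value filter and so belong to the 268 rows tested. The gilts, young female pigs, were crossbreds of Landrace, Yorkshire, Duroc and Hampshire stock, and each of the 12 small RNA libraries came from the uterus of a separate animal. PND2N gilts (n = 4) nursed for 48 h and PND2R gilts (n = 4) were fed commercial milk replacer over that time, both groups being collected at 50 h of age. PND0 gilts (n = 4) were taken within 1 h of birth without having nursed, so age and feeding since birth cannot be told apart against this group. Whole uteri trimmed of connective tissue were used; the labels do not state whether blood was rinsed out.

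miR-451 and miR-144 are cut from a single primary transcript that the factor GATA1 switches on in red cell precursors. miR-451 is known for maturing without Dicer, through cleavage by Argonaute 2, and mice that lack it make red cells that withstand oxidative stress poorly. miR-486 lies inside ANK1, the gene of the red cell membrane protein ankyrin, and is also made in striated muscle. miR-185 is widely expressed. In RefSeq's annotation of the pig assembly Sscrofa11.1, MIR451 and MIR144 are each other's nearest miRNA gene and both lie within the span of ERAL1, MIR486-1 lies within ANK1, and MIR185 within TANGO2. The series was processed on another assembly, so no coordinates are given.

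All levels are shares of the reads summed over a library's miRNA rows, in rpm (reads per 1000000), and percentages are of the same sum. Of the 362 names 51 had several rows, some with equal values, such as those of miR-196b-5p. A read can thus count more than once in this sum. Reads per library, summed in this way, ran from 37462 to 12159233. The 4 libraries under 100000 reads were PND2N replicate 2 and PND2R replicates 1, 2 and 3, so a lack of depth went with the replacer-fed group. In these 4 libraries 1 read was worth 13.4 to 26.7 rpm. The bracketed ranges below are exact Clopper-Pearson intervals at 95%, and they cover counting error only, since no molecular identifiers were used. The libraries looked like smooth-muscle-rich uterus: miR-143-3p, a smooth muscle miRNA, ranked first with 16.9% ± 4.83 (SD, n = 12) of the reads.

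The red cell miRNAs were a minor part of these libraries. Summed, miR-451, miR-144 and miR-486 made up 0.0282% ± 0.0154 (SD) of the reads in PND2N, 0.0325% ± 0.0162 in PND2R and 0.0461% ± 0.0102 in PND0. The lowest library held 0.00949% and the highest 0.0554%. By mean share over the 12 libraries, miR-185 ranked 105 and miR-451 ranked 106 of 420 rows, miR-144 ranked 142 and miR-486 ranked 208. In bulk tissue, fewer red cells and less miRNA per red cell cannot be told apart.

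**Figure D1:**
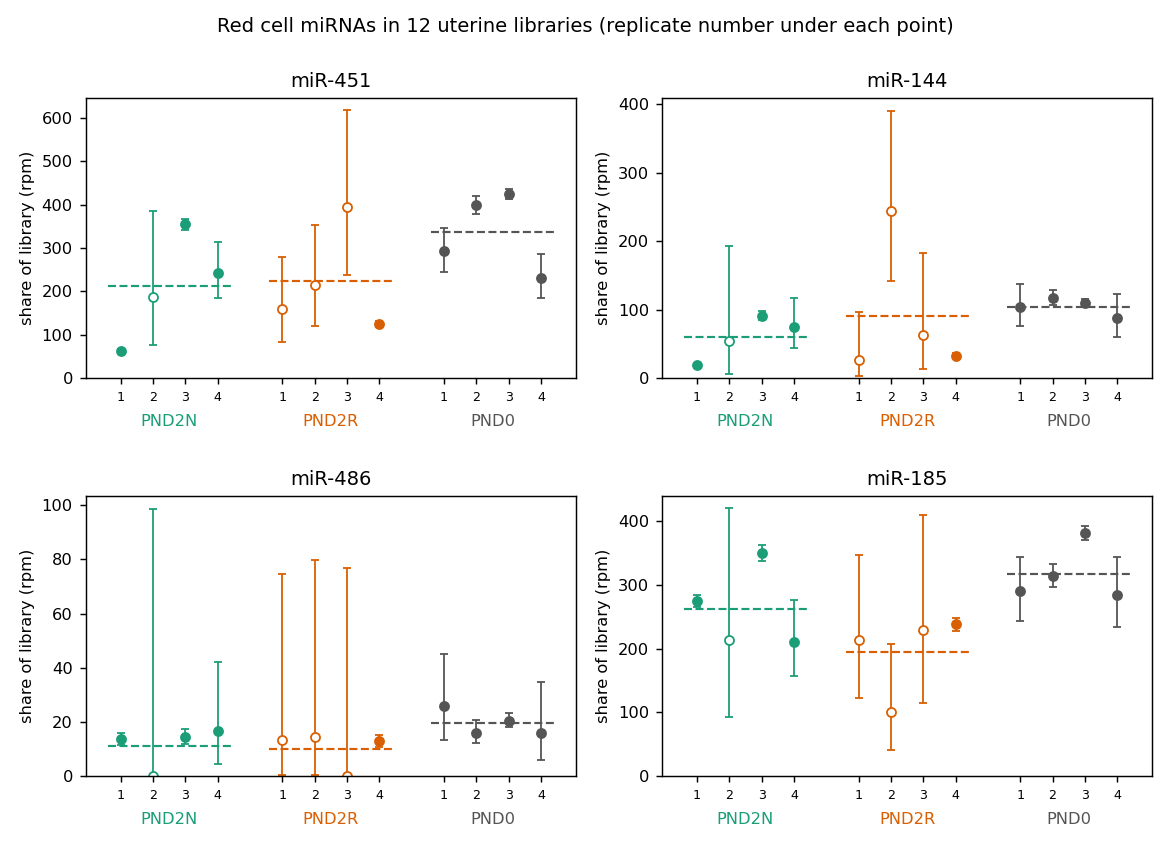
Share of each miRNA (rpm) in each library, with exact 95% counting intervals; dashed lines are group means and open points are the 4 libraries under 100000 reads. For miR-451 and miR-144, PND2N replicate 1 at 62.6 and 18.8 rpm was far under PND2N replicate 3 at 355 and 90.6 rpm, while the 4 PND0 libraries lay between 231 and 424 rpm and between 87.8 and 117 rpm.

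miR-451 stood at 62.6 (58.2 to 67.3), 187 (75.1 to 385), 355 (343 to 368) and 243 (185.2 to 314) rpm in PND2N replicates 1 to 4. In PND2R it stood at 160.4 (82.9 to 280.2), 215 (120.3 to 354), 396 (238 to 618) and 125 (118 to 132) rpm. In PND0 it stood at 293 (246 to 346), 399.5 (379 to 421), 424 (413 to 436) and 231 (185.4 to 285) rpm. The 3 groups overlapped: PND2N exceeded PND0 in 3 of 16 pairs of libraries, and PND2R exceeded PND0 in 2 of 16. The means were 212 ± 122 rpm in PND2N, 224 ± 120.4 rpm in PND2R and 337 ± 90.6 rpm in PND0 (SD, n = 4 each).

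The deeper libraries differed by far more than their counting error. PND2N replicate 1 had 739 reads of miR-451 and PND2R replicate 4 had 1173, against 5158 in PND0 replicate 3 and 1423 in PND0 replicate 2. Both fed libraries lay outside the counting interval of each of the 4 newborn libraries. PND2N replicate 3, with 2984 reads, did not share this: its 355 rpm lay between the newborn libraries. The 19 reads behind the 396 rpm of PND2R replicate 3 leave a wide interval.

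miR-144, the partner on the same transcript, stood at 18.8 (16.4 to 21.4), 53.4 (6.47 to 193), 90.6 (84.3 to 97.3) and 74.2 (44.0 to 117) rpm in PND2N replicates 1 to 4. In PND2R it stood at 26.7 (3.24 to 96.6), 243 (142 to 390), 62.5 (12.9 to 183) and 32.6 (29.0 to 36.4) rpm. In PND0 it stood at 103 (76.2 to 137), 117 (106 to 129), 110 (104 to 116) and 87.8 (60.4 to 123) rpm. The newborn libraries were close together, and nursed libraries exceeded them in 1 of 16 pairs. Among the replacer-fed libraries, replicates 1 and 3 rested on 2 and 3 reads and replicate 2 on 17. Group means were 59.2 ± 31.0 rpm in PND2N, 91.3 ± 103 rpm in PND2R and 104 ± 12.5 rpm in PND0 (SD, n = 4 each). Without PND2R replicate 2 the PND2R mean was 40.6 ± 19.2 rpm (SD, n = 3).

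miR-451 and miR-144 kept a near-constant ratio to each other although both varied widely between animals. In the 8 libraries over 100000 reads the ratio of miR-451 to miR-144 reads was 2.64 to 3.92, while the miR-451 share itself spanned 6.78-fold and the miR-144 share 6.23-fold. In the nursed gilts the ratio was 3.33 (2.86 to 3.89) in replicate 1 and 3.92 (3.62 to 4.25) in replicate 3, at the lowest and the highest miR-451 level of that group. It was 3.83 (3.38 to 4.36) in PND2R replicate 4, and 3.41 (3.06 to 3.82) and 3.87 (3.64 to 4.11) in PND0 replicates 2 and 3. The exception was PND2R replicate 2, at 0.882 (0.410 to 1.88) from 15 and 17 reads. The other 3 libraries under 100000 reads gave 3.50 to 6.33, each with an interval that held 3.92.

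**Figure D2:**
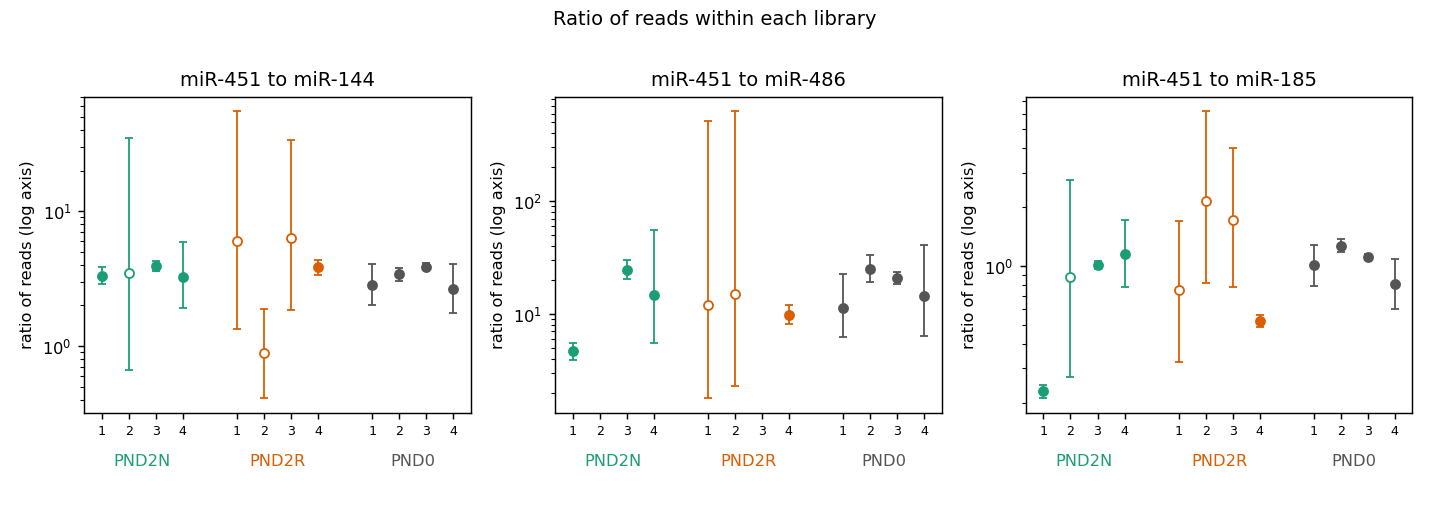
Reads of miR-451 divided by reads of miR-144, miR-486 or miR-185 in the same library (log axes), with exact 95% counting intervals; open points are libraries under 100000 reads, and libraries without miR-486 reads are left out. The ratio to miR-144 stayed between 2.64 and 3.92 in the 8 deeper libraries, whereas the ratios to miR-486 and miR-185 were lowest in PND2N replicate 1, at 4.65 and 0.228.

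miR-486 did not keep such a ratio. It stood at 13.5 (11.5 to 15.7), 0, 14.4 (11.95 to 17.2) and 16.5 (4.49 to 42.2) rpm in PND2N replicates 1 to 4. In PND2R it stood at 13.4 (0.338 to 74.5), 14.3 (0.363 to 79.8), 0 and 12.8 (10.6 to 15.3) rpm. In PND0 it stood at 25.8 (13.3 to 45.1), 16.0 (12.1 to 20.7), 20.4 (17.9 to 23.1) and 16.0 (5.86 to 34.7) rpm. The 2 libraries without a read, PND2N replicate 2 and PND2R replicate 3, allow up to 80.1 and 62.5 rpm (3 reads), and 13.4 and 14.3 rpm in PND2R were 1 read each. Among libraries with over 100 miR-486 reads, the highest was thus PND0 replicate 3 at 20.4 rpm, above the intervals of PND2N replicates 1 and 3 and PND2R replicate 4. The ratio of miR-451 to miR-486 was 4.65 (3.91 to 5.55) in PND2N replicate 1 and 9.78 (8.10 to 11.9) in PND2R replicate 4. In PND0 replicates 1 to 4 it was 11.3 (6.28 to 22.5), 25.0 (19.2 to 33.1), 20.8 (18.3 to 23.7) and 14.5 (6.40 to 40.6). The intervals of PND0 replicates 1 and 4, from 12 and 6 miR-486 reads, held 9.78. The ratio was 24.7 (20.6 to 29.8) in PND2N replicate 3 and 14.75 (5.47 to 55.9) in PND2N replicate 4, the latter from 4 miR-486 reads.

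miR-185 was more even between the deeper libraries than miR-451 and miR-144. It stood at 275 (265 to 284), 214 (92.2 to 421), 351 (338 to 363) and 210 (157 to 276) rpm in PND2N replicates 1 to 4. In PND2R it stood at 214 (122 to 347), 100.3 (40.3 to 207), 229 (114 to 410.1) and 238 (228 to 248) rpm. In PND0 it stood at 291 (244 to 344), 314 (296 to 333), 382 (371 to 393) and 285 (233 to 344) rpm. All 4 replacer-fed libraries lay below all 4 newborn libraries, while the nursed libraries overlapped with both other groups. Of the 4 replacer-fed values only that of replicate 4, from 2237 reads, has a narrow interval. Over the 8 libraries above 100000 reads its share spanned 1.82-fold. The median was 1.92-fold over the 152 rows with at least 10 reads in each of the 8. The share of miR-486 spanned 2.02-fold, but it is not among the 152, with 4 reads in PND2N replicate 4 and 6 in PND0 replicate 4. By the same measure miR-451 ranked 2 and miR-144 ranked 4 of the 152, beside both rows of miR-7.

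The members also differed from each other between the 2 deepest nursed libraries. PND2N replicate 3 held 5.68 times the miR-451 share and 4.82 times the miR-144 share of PND2N replicate 1, against 1.07 times for miR-486 and 1.28 times for miR-185. Among the 205 rows with at least 100 reads in both libraries, miR-451 and miR-144 ranked 1 and 2 by this ratio, and the median row was at 0.976 times. miR-34c, named after its value was seen, came next at 4.34 times. This compares 2 animals of 1 group, not conditions. In PND0 replicate 3 over replicate 2 the same ratio was 1.06 for miR-451 and 0.937 for miR-144.

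**Figure D3:**
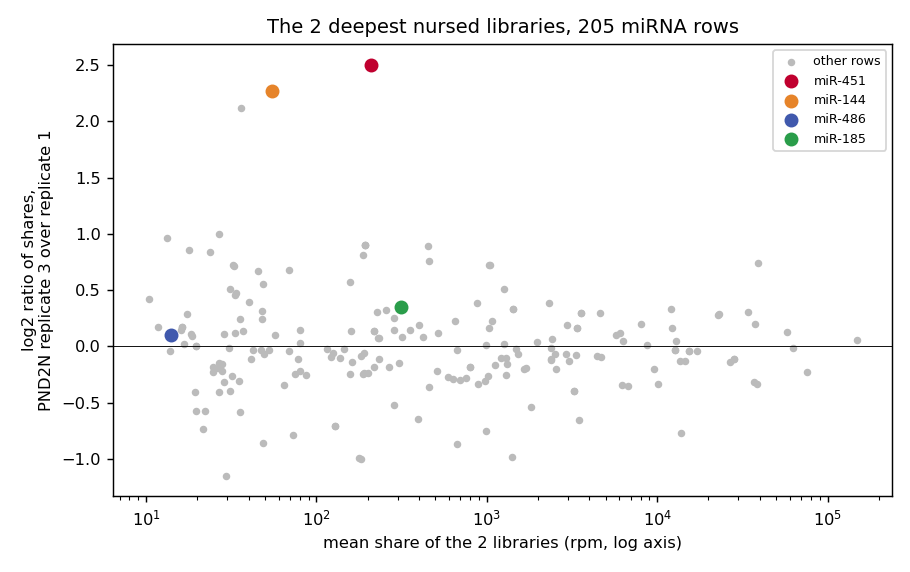
log2 ratio of shares in PND2N replicate 3 over PND2N replicate 1 against the mean share of the 2 libraries (rpm, log axis), for 205 rows. miR-451 at 2.505 and miR-144 at 2.27 stand above the other rows, while miR-185 at 0.35 and miR-486 at 0.10 lie within them.

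Tested across all rows, none of the 4 passed in any of the 3 comparisons. For PND2N against PND0, limma called 0 of 268 rows at an adjusted p under 0.05 (0% of rows called), with 22 at an unadjusted p under 0.05 and 0 of these among the 4. The log2 fold change of share + 5 rpm was -0.85 ± 0.47 (SE; interval -1.87 to 0.17) for miR-451, with an adjusted p of 0.639 by limma. It was -0.94 ± 0.60 for miR-144 and -0.79 ± 0.54 for miR-486, both at an adjusted p of 0.672, and -0.29 ± 0.30 for miR-185 (adjusted p = 0.798). All 4 values were below 0, as were 201 of the 268 rows (75%), with a median of -0.82 for the 4 and -0.22 for all rows. Groups lay apart with PND2N lower in 0 of the 4 and in 2.99% of all rows. Without PND2N replicate 1 the miR-451 value was -0.37 and the miR-144 value -0.52. Without PND2N replicate 2, which had 0 reads of miR-486, the miR-486 value was -0.30.

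For PND2R against PND0, limma again called 0 of 268 rows (0%), with 29 at an unadjusted p under 0.05, miR-185 among them. miR-185 had a log2 fold change of -0.75 ± 0.30 (interval -1.40 to -0.11) and an adjusted p of 0.385 by limma, and PND2R exceeded PND0 in 0 of 16 pairs. miR-451 was at -0.67 ± 0.47 (adjusted p = 0.728), miR-144 at -0.70 ± 0.60 (adjusted p = 0.795) and miR-486 at -0.86 ± 0.54 (adjusted p = 0.674). Groups lay apart with PND2R lower for miR-185 and miR-486, against 4.48% of all rows, and for miR-486 this rests on PND2R libraries of which 3 of 4 had 0 or 1 read. Without PND2R replicate 3 the miR-486 value was -0.39, and without PND2R replicate 2 the miR-144 value was -1.34. All 4 values were below 0, against 60.8% of all rows, with medians of -0.73 and -0.08. This comparison shares its PND0 libraries with the previous one, so the common direction is not independent. Without the 4 shallow libraries, which leaves 1 PND2R library assumed to vary like the others, the value was -1.36 ± 0.64 for miR-451, -1.54 ± 0.58 for miR-144, -0.45 ± 0.43 for miR-486 and -0.40 ± 0.37 for miR-185.

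At 50 h of age, no difference between nursed and replacer-fed gilts was detectable in these miRNAs. limma called 0 of 268 rows for PND2N against PND2R (0%), with 31 at an unadjusted p under 0.05 and 0 of these among the 4. The log2 fold change was -0.18 ± 0.47 (interval -1.19 to 0.84) for miR-451, -0.23 ± 0.60 (-1.51 to 1.05) for miR-144, 0.07 ± 0.54 (-1.09 to 1.24) for miR-486 and 0.46 ± 0.30 (-0.18 to 1.10) for miR-185, with limma adjusted p from 0.536 to 0.949. The intervals hold 2-fold differences in either direction for miR-451, miR-144 and miR-486, except an increase for miR-451. The signs for miR-451, miR-144 and miR-486 turned when single libraries were left out. PND2N exceeded PND2R in 8 of 16 pairs for miR-451 and for miR-144.

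**Figure D4:**
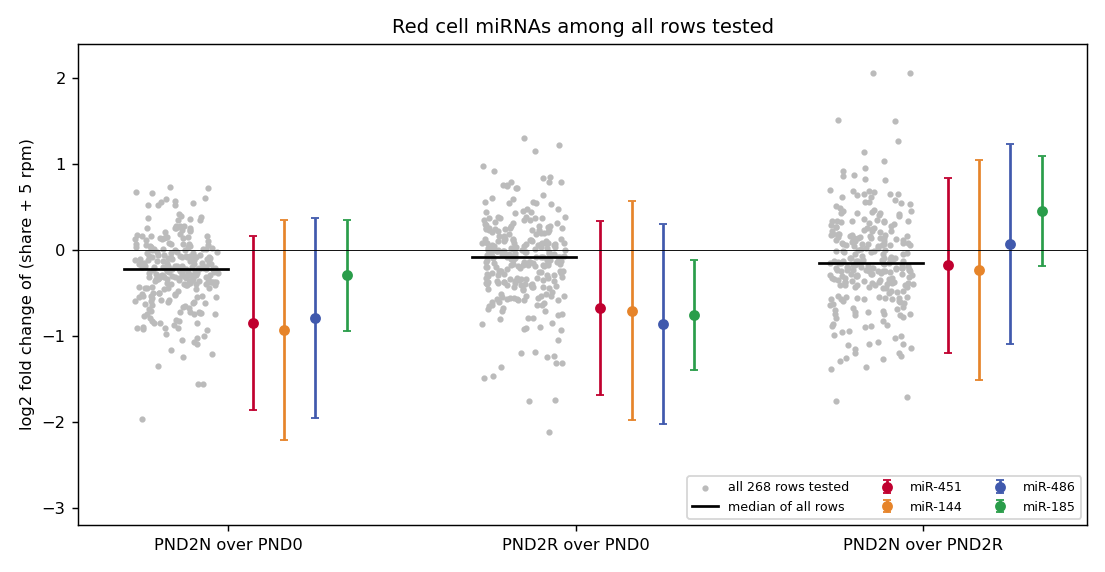
log2 fold change of share + 5 rpm in 3 comparisons: grey points are the 268 rows tested, black bars their median, and coloured points the 4 miRNAs with the 95% interval of the limma fit. Against PND0 all 4 lie below 0 in both fed groups, from -0.94 to -0.29 in PND2N and from -0.86 to -0.67 in PND2R, and the interval of miR-185 in PND2R is the only one of these 8 that does not reach 0.

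The ratio of miR-451 to miR-23a, a miRNA that varies little with blood and is the usual denominator in tests of haemolysis in human plasma, was lowest in the same 2 libraries as the miR-451 share, PND2N replicate 1 and PND2R replicate 4. It was 0.0401, 0.117, 0.238 and 0.124 in PND2N replicates 1 to 4, 0.0727, 0.10, 0.174 and 0.0636 in PND2R and 0.147, 0.242, 0.211 and 0.122 in PND0. The groups overlapped. The level of miR-23a itself was 1654 ± 208 rpm in PND2N, 2147 ± 133 rpm in PND2R and 1890.5 ± 165 rpm in PND0. PND2N was below PND2R in 16 of 16 pairs (adjusted p = 0.330 by limma), as were 5.22% of all rows.

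Other miRNAs abundant in red cells but also made in most tissues passed no test. For miR-16 the 2 fed groups did not overlap, with PND2N lower, as was so for 5.22% of all rows. From the list of miR-16, miR-92a, miR-363, miR-107, miR-25 and miR-93, 4 names with 5 rows were used; no row of the last 2 was analysed here. None of the 5 rows passed in any comparison. Their median log2 fold change was -0.30 for PND2N against PND0, -0.14 for PND2R against PND0 and -0.17 for PND2N against PND2R. Over all rows the median was -0.22, -0.08 and -0.15. In each comparison the list median was the value of a miR-92a row, and miR-92a supplied 2 of the 5 rows. In the same order miR-363 was at -0.50, -0.35 and -0.15, and miR-107 at -0.44, -0.05 and -0.39. miR-16 averaged 1531 ± 142 rpm in PND2N, 2130.0 ± 104 rpm in PND2R and 1669 ± 328 rpm in PND0. Its log2 fold change was -0.48 ± 0.16 for PND2N against PND2R, with PND2N above in 0 of 16 pairs (adjusted p = 0.277 by limma), and 0.37 ± 0.16 for PND2R against PND0 (adjusted p = 0.391). The more abundant of 2 near-identical rows of miR-92a averaged 5383 ± 1831 rpm in PND2N, 5781 ± 608 rpm in PND2R and 6620.4 ± 2260.1 rpm in PND0. Between PND2N replicates 3 and 1, miR-16 was at 0.984 times and this miR-92a row at 0.784 times.

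The summed share of endothelial miRNAs, which mark vessel walls, also averaged lower in both fed groups than in newborns, and was mostly miR-126-3p. The summed share of miR-126, miR-221 and miR-222 (5 rows) was 11004 to 14708 rpm in PND2N, 10442 to 12821 rpm in PND2R and 12924 to 16354 rpm in PND0. Of the 5 rows 4 were below 0 for PND2N against PND0 and 5 for PND2R against PND0, with 0 called. Of all rows 75% and 60.8% were below 0. The 5 rows ranged from -0.73 to 0.22 for PND2N and from -0.39 to -0.06 for PND2R. miR-126-3p, the most abundant of these rows, averaged 11087 ± 1595 rpm in PND2N, 10415 ± 1034 rpm in PND2R and 13620 ± 1407 rpm in PND0. Its log2 fold change for PND2R against PND0 was -0.39 ± 0.14 (adjusted p = 0.385 by limma). Of the 4 smooth muscle rows (both arms of miR-143 and miR-145), 3 were above 0 and miR-145-3p below 0 against PND0 in both fed groups, with 0 called. Their summed share, mostly miR-143-3p, was 16.4% to 29.1% in PND2N, 18.1% to 21.0% in PND2R and 9.49% to 17.8% in PND0. The part of these endothelial and smooth muscle miRNAs in the red cell values was not tested. A total taken without miR-143-3p kept all 4 signs against PND0, but it only rescales each library and cannot decide this. It moved the median of all rows from -0.22 to -0.15 for PND2N and from -0.08 to -0.04 for PND2R against PND0.

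Against PND0, white cell and platelet miRNAs were split in sign, with a median below 0 in PND2N and above 0 in PND2R. No row of miR-223 was analysed here. The list held 10 rows of miR-142, miR-150, miR-155, miR-146a and miR-146b, of which 7 were tested. The 10 rows summed to 1655 to 3495 rpm in PND2N, 1939 to 2897 rpm in PND2R and 1743 to 3289 rpm in PND0. These sums were mostly miR-146b, which other cells make too. Of the 7 tested rows 3 were above and 4 below 0 for PND2N against PND0, and 4 above and 3 below for PND2R against PND0, with 0 called. For PND2N they ran from -0.85 to 0.06, with a median of -0.50 beside -0.22 over all rows. For PND2R they ran from -0.38 to 0.44, with a median of 0.35 beside -0.08 over all rows. For PND2N against PND2R, 5 of the 7 were below 0 with 0 called (median -0.49, beside -0.15 over all rows). Groups lay apart with PND2N lower in 2 of the 7, against 5.22% of all rows. miR-146a-5p supplied 2 near-identical rows of the 7, at -1.20 and -1.26 here, so these counts and medians hold it more than once. miR-142-3p, of the blood cell lineage, stood at 34.98, 0, 45.8 and 16.5 rpm in PND2N, where the 0 is replicate 2. In PND2R it stood at 26.7, 57.3, 20.8 and 44.6 rpm and in PND0 at 25.8, 33.4, 39.3 and 13.3 rpm. In PND2N replicate 2 and PND2R replicates 1 to 3, 1 read is 13.4 to 26.7 rpm, so these values rest on few reads. The other arm, miR-142-5p, had the opposite sign, with wide errors and neither arm called. For PND2N against PND2R miR-142-3p was at -0.88 ± 0.64 (SE) and miR-142-5p at 0.43 ± 0.65. For PND2R against PND0 they were at 0.35 ± 0.64 and -0.38 ± 0.65. Epithelial miRNAs were represented by miR-429 and miR-205, both below 0 against PND0 in both fed groups, with 0 called. miR-205 averaged 481 ± 278 rpm in PND2N, 637 ± 154 rpm in PND2R and 812 ± 93.3 rpm in PND0. For PND2N against PND0 its log2 fold change was -0.92 ± 0.34 (interval -1.64 to -0.20, adjusted p = 0.550 by limma). That of miR-429 was -0.39 ± 0.30. For PND2R against PND0 miR-205 was at -0.37 ± 0.34 and miR-429 at -0.02 ± 0.30.

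Outside the 4, the rows whose levels ran most like miR-451 were miR-98, miR-126-5p, miR-126-3p and 2 rows of let-7f. Likeness was Pearson's r of log2(share + 5 rpm) over the 12 libraries among 157 rows above the floor in every library, given as a description. It was 0.57 for miR-98, 0.57 for miR-126-5p, 0.55 for miR-126-3p and 0.48 for both let-7f rows, against a median of 0.03 over the 157 rows. For the other members it was 0.71 for miR-144, 0.27 for miR-185 and -0.001 for miR-486. Over the 8 libraries above 100000 reads it was 0.97 for miR-144, 0.53 for miR-185 and 0.54 for miR-486, against 0.68 for miR-126-3p and a median of -0.05. The libraries share depth and group, and the 12 values are pooled over the 3 groups.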

How the data were processed

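Small RNA from 12 uteri was sequenced as 50 bp single ends after NEBNext library preparation, per the labels' protocols. The submitters' processing notes name Sscrofa10.2 and FastQC; how reads were aligned, counted and normalized is not given in the sources used here. Values in the deposited table are a normalized expression signal, scaled by the authors with 1 factor per library. From the values, each is a whole number of reads times a step that is fixed within a library, with a floor of 1 under which nothing is listed: 100% of values up to 1000 reads were whole within 0.1 of a read, and of all unfloored values at least 96.3%. The steps gave depth and counting intervals. At most 12 reads can be hidden by the floor in any library, and 0 in the 2 libraries where miR-486 was at the floor; floor values were taken as 0.

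Each signal was divided by its library's total above the floor. limma 3.58.1 (R 4.3.3; empirical Bayes with trend) was run on log2(share + 5 rpm) for rows above the floor in at least 4 of 12 libraries, 1 coefficient per group, two-sided, Benjamini-Hochberg adjusted over 268 rows, threshold 0.05. Such fold changes understate the change of low miRNAs. Shares are relative, so a shift in an abundant miRNA moves all others. The fit was also run on simulated data with the same spread set for every row. That run cannot show how the fit performs on rows that vary as miR-451 and miR-144 do here. Replicates were numbered in accession order. The members and lists were chosen with earlier results of these data known. The rule for named miRNAs was every member, the highest row of each marker list, miR-23a, miR-16, miR-92a, miR-143-3p and the 5 rows most like miR-451; miR-34c, miR-7 and miR-142-3p were added after their values were seen. Alternatives covered scale, pseudocount, filter, weights, groups fitted and libraries left out. No 2 columns were identical. No miRNA sequence was in the sources used here.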

Additional observations from a re-analysis of the deposited data

Results flagged for a closer look

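The values of 4 miRNAs were screened in 3 groups for a library far from its group, and 2 of the 12 sets gave one; chance alone gives about 1 in 20. miR-144 stood at 243 rpm in PND2R replicate 2, where the next PND2R library had 62.5 rpm; it rests on 17 reads, and miR-451 in that library, at 215 rpm, was not apart from its group. miR-486 stood at 0 rpm in PND2R replicate 3, a library in which 3 reads would be 62.5 rpm and the other 3 libraries of the group had 12.8 to 14.3 rpm.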

How the results depend on the processing

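The 342 alternative values were fold changes of the 4 miRNAs and counts of rows called, which have no direction. Of these, 329 stayed the same, by direction and side of the threshold or by count. Another 12, all fold changes, reversed, and 1 count moved. For PND2N against PND2R, 4 values reversed for miR-451, 3 for miR-144 and 4 for miR-486. The remaining 1 was for miR-185 in PND2N against PND0. limma called 0 rows under each alternative except for PND2N against PND2R without PND2R replicate 4, where it called 3 of 264, none of the 4 among them; the range over single libraries left out was 0 to 3. Against PND0, miR-451 ranged from -1.23 to -0.37 in PND2N and from -1.36 to -0.44 in PND2R, miR-144 from -1.34 to -0.52 and from -1.54 to -0.35, and miR-486 from -1.35 to -0.30 and from -1.44 to -0.39. miR-185 in PND2N against PND0 turned to 0.069 under quantile normalization; in PND2R it ranged from -1.36 to -0.40. For PND2N against PND2R, miR-451 turned to 0.051 on the deposited values and to 0.49 without the 4 shallow libraries, and lay between -0.50 and 0.31 with single libraries left out. miR-144 turned to 0.59 without the shallow libraries and lay between -0.59 and 0.40, and miR-486 lay between -0.40 and 0.57. The causes were not tested. On deposited values the median of all rows shifted to -0.49 for PND2N and -0.58 for PND2R against PND0. miR-486 has no value in the fit on the 160 rows above the floor everywhere. The planned fits of edgeR, DESeq2 and limma voom were not run, since the deposited unit is not counts. No paired analysis was possible because the labels give no replicate numbers. Depth limits miR-486 and the PND2R group most, as 1 read is 13.4 to 20.8 rpm in 3 of its 4 libraries.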
